A study of Oryza sativa with 14 samples.

Results

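The 9 loci described here make up much of the known route of strigolactone synthesis and signalling in rice, out of 37727 loci in the deposited count tables. They comprise the cytochrome P450 gene MAX1D (Os02g0221900, chromosome 2), its homologs SLB1 (Os01g0700900) and SLB2 (Os01g0701400) on chromosome 1, and the synthesis genes D27 (Os11g0587000, chromosome 11), D17 (Os04g0550600, chromosome 4) and D10 (Os01g0746400, chromosome 1). The signalling genes are D14 (Os03g0203200, chromosome 3), D3 (Os06g0154200, chromosome 6) and D53 (Os11g0104300, chromosome 11). They were named by locus with the green manure values of these libraries already known, so those values, and the count of members called in that contrast, are given as a description and support nothing. The description that the tables give each locus fits its name for 8 of the 9; SLB1 is described only as similar to a cytochrome P450 monooxygenase.

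Leaves came from wild-type plants of the rice cultivar 'Koshihikari' in paddy fields. The green manure (GM) leaves were from soil into which hairy vetch, a legume cover crop, had been plowed, with no chemical fertilizer added. Vetch was sown at 60 kg/ha for the 2024 crop (3 libraries) and at 30 kg/ha for the 2023 crop (4 libraries). The chemical fertilizer (CF) leaves, 3 libraries in 2024 and 4 in 2023, were from soil given 56 kg/ha N, 176 kg/ha PO4, 56 kg/ha K, 90 kg/ha Mg and 120 kg/ha SiO2. All seedlings had been raised in a nursery field that itself received N, PO4 and K. One leaf, described as the largest in one label and as the first fully expanded from the top in another, was 1 biological replicate, taken 38 days after transplanting in 2024 and 47 days in 2023. The number of fields or plots per treatment is not given in the sources used here, so treatment and field cannot be told apart. Nor can year, days after transplanting, season, table and any sequencing run, nor, in GM leaves, the vetch rate.

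Strigolactones are carotenoid-derived hormones that hold back the outgrowth of tiller buds and, when released from roots, attract mycorrhizal fungi. In the plastid the isomerase D27 and the cleavage enzymes D17 (CCD7) and D10 (CCD8) turn β-carotene into carlactone, which cytochrome P450s of the MAX1 family then oxidise. In a responding cell the receptor D14 binds the hormone and, with the F-box protein D3, directs the repressor D53 to degradation. Synthesis in rice is best known from roots, where shortage of phosphate or nitrogen raises it; the leaf is known mainly as a place of perception.

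Levels are given as CPM, read counts relative to library size, with library sizes adjusted by the trimmed mean of M-values (TMM), on 1 scale for all 14 libraries. Libraries held 13224671 to 23367369 reads in 2024 and 8161851 to 11375515 in 2023. Transcript lengths were not at hand, so levels are compared between libraries and not between genes. A gene is called where edgeR's quasi-likelihood test gave a Benjamini-Hochberg adjusted p under 0.05 over all genes tested. In whole leaves, fewer cells of a type and less RNA per cell cannot be told apart.

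Of the synthesis genes, MAX1D differed most between the treatments. It is annotated as a homolog of Arabidopsis MAX1 that takes part in the regulation of tiller number by fertilization. In 2024 it stood at 3.82, 3.50 and 3.83 CPM in GM leaves, against 14.9, 17.9 and 9.49 CPM in CF leaves. In 2023 it stood at 12.4, 13.2, 16.7 and 18.9 CPM in GM leaves, against 44.3, 77.7, 59.7 and 39.8 CPM in CF leaves. Every GM library lay below every CF library of its year. GM leaves averaged 3.72 ± 0.187 CPM and CF leaves 14.1 ± 4.26 CPM in 2024 (SD, n = 3 each), and 15.3 ± 3.05 CPM and 55.4 ± 17.2 CPM in 2023 (SD, n = 4 each). The log2 fold change, GM over CF, was -1.91 ± 0.23 in 2024 and -1.86 ± 0.23 in 2023 (SE), so the level in GM leaves was 3.77-fold and 3.64-fold lower. The log2 fold change of 2024 minus that of 2023 was -0.04 ± 0.37 (SE). These values rest on 33 to 59 reads per GM library and 199 to 268 per CF library in 2024, and on 128 to 185 and 434 to 837 reads in 2023.

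**Figure D1:**
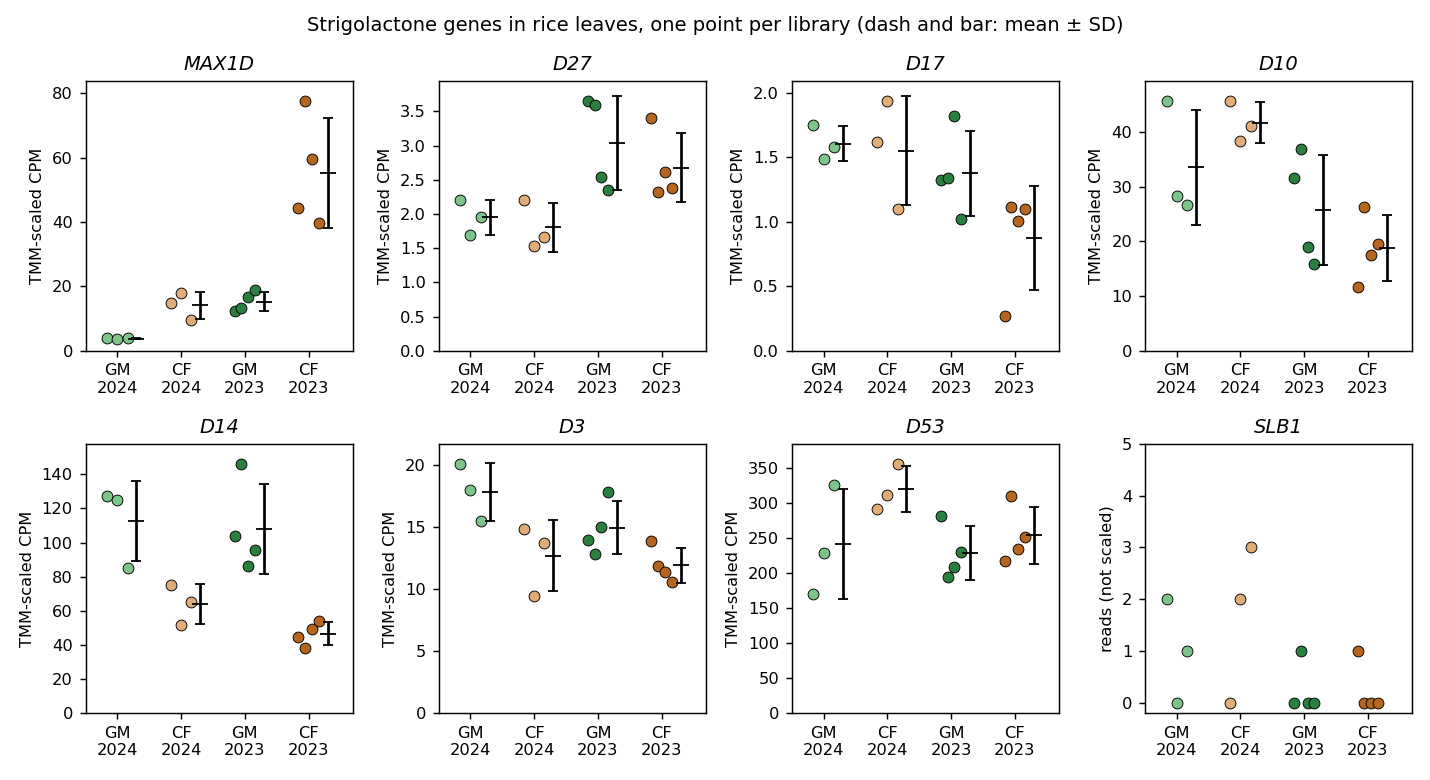
Levels of the strigolactone genes in each leaf library, by treatment and year. The y axes give TMM-scaled CPM, or unscaled reads for SLB1, points are libraries, and the dash and bar beside them are the mean ± SD (n = 3 in 2024, n = 4 in 2023). MAX1D is lower in the GM libraries of both years, at 3.50 to 3.83 CPM in 2024 and 12.4 to 18.9 CPM in 2023, and D14 is higher in them.

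SLB1 and SLB2 encode the MAX1 family enzymes known in rice to turn carlactone into the strigolactone 4-deoxyorobanchol and this into orobanchol. SLB1 had 10 reads in all, found in 6 of the 14 libraries. They were 2, 0 and 1 reads in GM leaves and 0, 2 and 3 in CF leaves of 2024, and 0, 1, 0 and 0 reads in GM leaves and 1, 0, 0 and 0 in CF leaves of 2023. SLB2 had no read in any of 179547731 unique reads, which allows at most 0.0167 CPM over all libraries, from a floor of 3 reads. That floor covers counting error only, and reads shared with related loci may be left out of the counts. Neither locus passed the filter on low counts, so the remaining 7 members are the ones with fold changes. At this depth no difference between treatments was detectable for these 2 loci.

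D27, the β-carotene isomerase at the head of the route, was measured in all 14 libraries with 16 to 47 reads. It had 2.20, 1.70 and 1.95 CPM in GM leaves and 2.21, 1.53 and 1.67 CPM in CF leaves of 2024. In 2023 the values were 3.65, 3.60, 2.54 and 2.34 CPM in GM leaves and 3.41, 2.32, 2.61 and 2.38 CPM in CF leaves. The treatments overlapped in both years, with log2 fold changes of 0.13 ± 0.27 in 2024 and 0.18 ± 0.26 in 2023 (SE, GM over CF).

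D17, the carotenoid cleavage dioxygenase CCD7, gave 3 to 29 reads per library. It stood at 1.75, 1.49 and 1.58 CPM in GM leaves and 1.62, 1.94 and 1.10 CPM in CF leaves of 2024. In 2023 it stood at 1.32, 1.34, 1.82 and 1.02 CPM in GM leaves and 0.269, 1.11, 1.00 and 1.10 CPM in CF leaves. Again the treatments overlapped, with log2 fold changes of 0.07 ± 0.31 in 2024 and 0.66 ± 0.43 in 2023 (SE). The value of 2023 includes CF library 1 with only 3 reads, and without it was 0.36. Without CF library 3 of 2024 the value of 2024 was -0.15.

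D10, the dioxygenase CCD8 that forms carlactone, had more reads, 131 to 864 per library. It stood at 45.6, 28.3 and 26.6 CPM in GM leaves and 45.7, 38.3 and 41.2 CPM in CF leaves of 2024. In 2023 it stood at 31.6, 36.8, 18.9 and 15.8 CPM in GM leaves and 11.7, 26.3, 17.6 and 19.5 CPM in CF leaves. GM libraries 1 and 2 of 2023 were high and the other two lay among the CF libraries. Its log2 fold change, GM over CF, was -0.32 ± 0.19 in 2024 and 0.45 ± 0.33 in 2023 (SE), with overlap in both years. GM libraries 1 and 2 of 2023 also stood apart from the other two over all genes, at 25.0 and 56.0 on the first principal component against 1.06 and 0.94. Without those 2 libraries the log2 fold change of D10 in 2023 was -0.11 and that of D27 -0.13.

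Among the signalling genes D14, the α/β-hydrolase receptor, was higher in GM leaves. It stood at 127, 125 and 85.4 CPM in GM leaves and 75.3, 51.6 and 65.1 CPM in CF leaves of 2024. In 2023 it stood at 104, 146, 86.6 and 95.7 CPM in GM leaves and 44.8, 38.2, 49.3 and 54.3 CPM in CF leaves. The lowest of the 7 GM libraries, at 85.4 CPM, lay above the highest of the 7 CF libraries, at 75.3 CPM. D14 was chosen on this contrast, and the share of all genes that separate so over both years was not counted. GM leaves averaged 112 ± 23.4 CPM and CF leaves 64.0 ± 11.9 CPM in 2024 (SD, n = 3 each), and 108 ± 26.4 CPM and 46.7 ± 6.84 CPM in 2023 (SD, n = 4 each). The log2 fold change was 0.80 ± 0.18 in 2024 and 1.21 ± 0.16 in 2023 (SE), or 1.74-fold and 2.31-fold. The log2 fold change of 2024 minus that of 2023 was -0.40 ± 0.27 (SE).

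D3, the F-box protein that works with D14, showed smaller differences. It stood at 20.1, 17.9 and 15.5 CPM in GM leaves and 14.9, 9.48 and 13.7 CPM in CF leaves of 2024, without overlap. In 2023 it stood at 13.99, 12.9, 15.0 and 17.8 CPM in GM leaves and 13.9, 11.9, 11.3 and 10.5 CPM in CF leaves, with 1 GM library below the highest CF library. Its log2 fold change was 0.48 ± 0.17 in 2024 and 0.32 ± 0.14 in 2023 (SE, GM over CF).

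D53, the repressor that D14 and D3 remove, had the most reads of the members, 1883 to 7462 per library. It stood at 169.6, 229 and 325 CPM in GM leaves and 292, 312 and 356 CPM in CF leaves of 2024. In 2023 it stood at 281, 194, 208 and 229.9 CPM in GM leaves and 217, 310.4, 235 and 252 CPM in CF leaves. The GM libraries of 2024 spread over most of the range of the gene, and the treatments overlapped in both years. GM over CF, the log2 fold change of D53 was -0.42 ± 0.22 in 2024 and -0.16 ± 0.13 in 2023 (SE).

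**Figure D2:**
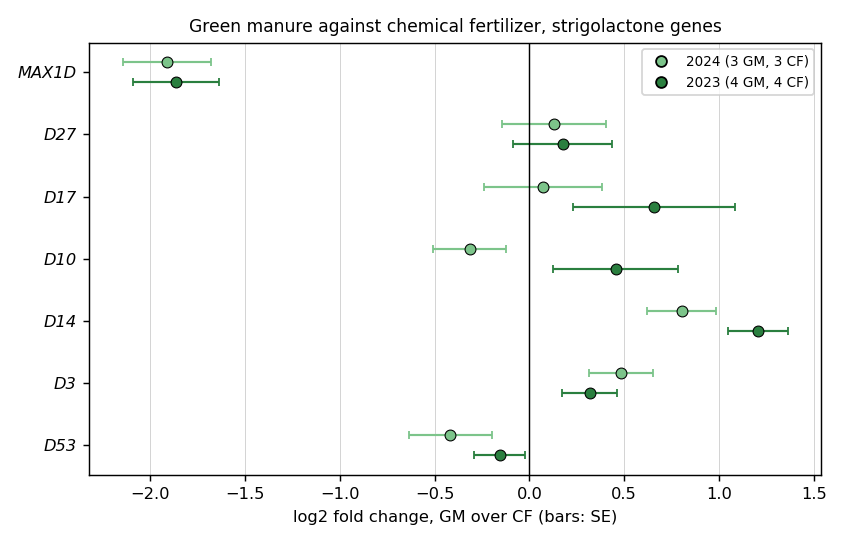
Log2 fold change, GM over CF, of the 7 members with enough reads, in each year. The x axis is the log2 fold change and bars are SE; points are the fitted values and mark no test. MAX1D lies at -1.91 (2024) and -1.86 (2023), D14 at 0.80 and 1.21, and the other 5 members between -0.42 and 0.66.

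Between the treatments, 1 of the 7 tested members was called lower and none higher in 2024, where 3.25% of 19261 genes tested were called (1.36% lower, 1.89% higher). In 2023 1 was called lower and 1 higher, where 2.48% of 18577 genes tested were called (0.851% lower, 1.63% higher). MAX1D was the one called lower in both years and D14 the one called higher in 2023. Libraries did not overlap for 3 members in 2024 (MAX1D, D14, D3), against 22.7% of all genes, and for 2 in 2023 (MAX1D, D14), against 9.96%. The counts of 2024 moved with the fit. They were 2 lower and 2 higher with the replicate number as a block (D53 lower and D14 and D3 higher besides MAX1D), 2 lower without GM library 1 (D10 besides MAX1D), and 2 lower and 1 higher without GM library 3 (D53 and D14 besides MAX1D). DESeq2 and its size factors each added D14 as higher. The members were chosen on this contrast, so these counts describe them and nothing is read from them. The difference between the years' log2 fold changes was called for no member, where 0.0101% of 19805 genes (2 genes) were called by edgeR, 1 of them higher and 1 lower, 0.00505% each. An unadjusted p under 0.05 was found for 1252 genes, and DESeq2 called 17. Median log2 fold changes of the 7 members were 0.07 in 2024 and 0.32 in 2023, with 0.00 over all genes in both years. Leaving out GM libraries 1 and 2 of 2023 together ended the call of MAX1D in that year, at a log2 fold change of -1.64.

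The change between the years within a treatment was not used to choose the members and was tested. It uses the same libraries as the treatment contrast, so it is not independent of that choice. MAX1D was the member that fell in both treatments. Its log2 fold change, 2024 over 2023, was -2.02 ± 0.30 in GM leaves (SE, edgeR adjusted p = 0.000138) and -1.98 ± 0.25 in CF leaves (edgeR adjusted p = 2.9e-05), so levels were 4.07-fold and 3.95-fold lower in 2024. No library of 2024 overlapped with one of 2023 in either treatment. Over all genes tested, 37.8% changed between years in GM leaves (18.6% higher, 19.1% lower) and 39.9% in CF leaves (19.5% higher, 20.4% lower). Libraries did not overlap between years for 38.4% of genes in GM leaves and 47.9% in CF leaves.

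In the order of its 4 group means MAX1D stood lowest in GM leaves of 2024. CF leaves of 2024 and GM leaves of 2023 came next, at 14.1 and 15.3 CPM, and their libraries overlapped, while CF leaves of 2023 stood highest and apart. For D14 the order from the highest mean down was GM leaves of 2024, GM leaves of 2023, CF leaves of 2024 and CF leaves of 2023. Neighbouring groups of D14 overlapped within each treatment, and the step between the treatments did not. In the order of D27 the step between the years was the one without overlap. The neighbours in the orders of D17, D10, D3 and D53 all overlapped. The shares of all genes with such orders were not counted, so the orders only describe the members.

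D10 was the member called higher in 2024, in CF leaves, with a log2 fold change of 1.15 ± 0.32 (SE, 2.22-fold, edgeR adjusted p = 0.0136) and no overlap between the years. Of all genes in CF leaves, 19.5% were called higher and 47.9% did not overlap between the years. Scaled by plain library totals the log2 fold change of D10 was 0.71 (edgeR adjusted p = 0.0725). In GM leaves the log2 fold change of D10 was 0.39 ± 0.32 (SE, edgeR adjusted p = 0.373), and without GM libraries 1 and 2 of 2023 it was 0.99 (edgeR adjusted p = 0.0392).

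The other 5 members passed the edgeR test in neither treatment, though scaling or single libraries moved D27 and D14 across the threshold. D27 did not overlap between the years in either treatment, like 38.4% of all genes in GM leaves and 47.9% in CF leaves. The log2 fold change of D27, 2024 over 2023, was -0.63 ± 0.27 in GM leaves (SE, edgeR adjusted p = 0.0696) and -0.58 ± 0.26 in CF leaves (edgeR adjusted p = 0.0888). Without GM library 4 of 2023 D27 passed in GM leaves, at -0.73 (edgeR adjusted p = 0.0470), and with plain library totals it passed in both, at -1.09 in GM leaves and -1.02 in CF leaves. D14 had 0.06 ± 0.19 in GM leaves (SE, edgeR adjusted p = 0.840) and 0.46 ± 0.19 in CF leaves (edgeR adjusted p = 0.0714). DESeq2 gave D14 in CF leaves 0.48 (adjusted p = 0.0353), and edgeR called it when GM library 2 of 2023, CF library 2 of 2024 or GM library 3 of 2024 was left out (adjusted p = 0.0241, 0.0322 and 0.0339). With plain library totals D14 stood at 0.02 in CF leaves (edgeR adjusted p = 0.909) and at -0.40 in GM leaves, where it was called lower (edgeR adjusted p = 0.0421). D17 had 0.22 ± 0.38 in GM leaves and 0.81 ± 0.39 in CF leaves (SE), and D3 had 0.26 ± 0.16 and 0.09 ± 0.16. D53 had 0.08 ± 0.18 in GM leaves and 0.33 ± 0.18 in CF leaves (SE). Of the 7 tested members, 1 fell and none rose in GM leaves, and 1 fell and 1 rose in CF leaves, both shares lying below those of all genes in either direction together.

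**Figure D3:**
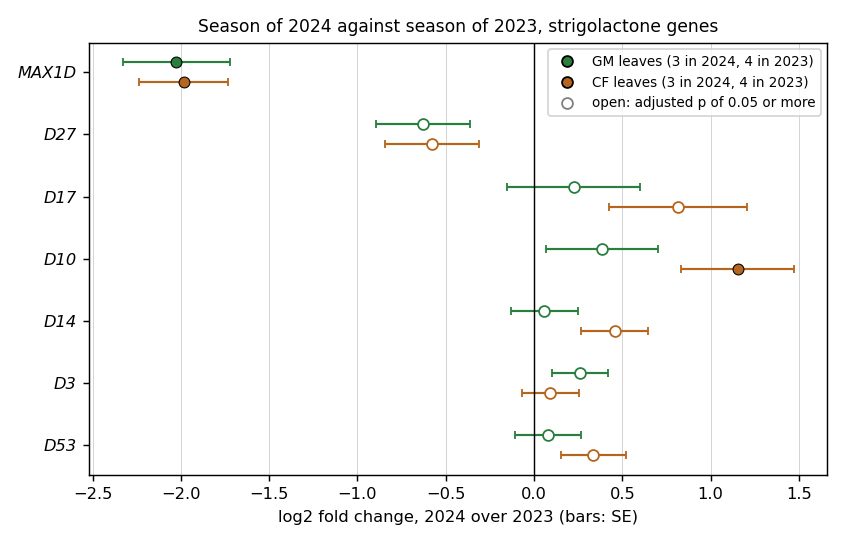
Log2 fold change, 2024 over 2023, of the 7 members within GM leaves and within CF leaves. The x axis is the log2 fold change, bars are SE and filled points had an adjusted p under 0.05 in edgeR. MAX1D lies at -2.02 and -1.98, D10 in CF leaves at 1.15, and the open points between -0.63 and 0.81.

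D53 has a near-identical copy, D53L (Os12g0104300, chromosome 12), that the tables describe by its Clp N-terminal domain. The tables count unique reads, so reads shared by both copies may be left out or split, and the level of either is uncertain. D53L gave 0.607 ± 0.0278 reads per D53 read in GM leaves and 0.578 ± 0.00440 in CF leaves of 2024 (SD, n = 3 each). In 2023 it gave 0.667 ± 0.0126 in GM leaves and 0.691 ± 0.0257 in CF leaves (SD, n = 4 each). The ratio was lower in every library of 2024 than in any of 2023 of the same treatment, at 0.579 to 0.634 against 0.648 to 0.674 in GM leaves and 0.573 to 0.582 against 0.669 to 0.727 in CF leaves. A two-sided exact permutation test gave p = 0.0571 in each treatment, the smallest p that 3 against 4 libraries allow. Libraries that separate fully must give this p, so the test adds nothing to the separation. The share of other gene pairs whose ratios separate so was not counted. Between treatments D53L moved much like D53, with log2 fold changes, GM over CF, of -0.36 ± 0.20 in 2024 and -0.20 ± 0.13 in 2023 (SE), neither called.

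**Figure D4:**
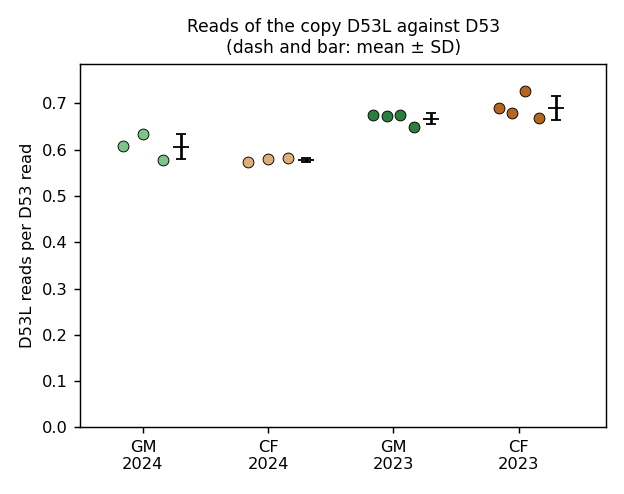
Reads of D53L per read of D53 in each library, by treatment and year, with mean ± SD (n = 3 in 2024, n = 4 in 2023). The 2024 libraries lie between 0.573 and 0.634 and the 2023 libraries between 0.648 and 0.727.

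The 6 loci whose levels ran most like MAX1D over the 14 libraries, by Pearson's r of log2 CPM among 12848 candidates, had r of 0.959 to 0.980. These r are a description over libraries that share treatment and year. They were DAO2 (Os04g0269600, r = 0.980, described as similar to a primary amine oxidase), a locus with a protein phosphatase 2C domain (Os03g0104100, r = 0.977) and ASNASE2 (Os04g0650700, r = 0.973). HAP2H (Os03g0647600, r = 0.961, a nuclear factor Y subunit), CYP97A4 (Os02g0817900, r = 0.960, a cytochrome P450) and a locus with a disease resistance domain (Os01g0788500, r = 0.959) followed. ASNASE2 came nearest to MAX1D in the size of its differences. It averaged 99.0 CPM in GM leaves and 414 CPM in CF leaves of 2024, and 480.2 CPM in GM leaves and 1008 CPM in CF leaves of 2023. Its log2 fold change, GM over CF, was -2.07 in 2024 and -1.08 in 2023. DAO2 was flatter, at -0.44 in 2024 and -0.51 in 2023.

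A list of 28 further loci of the pathway and its surroundings held 22 with enough reads. It comprises copies of the members, the related karrikin receptor branch, upstream regulators and downstream tillering genes. It also holds carotenoid enzymes, both those of the precursor pathway and those that compete for carotenoids. The list was chosen with earlier results of these data known, so its calls and p-values are a description. Between GM and CF leaves, 1 of the 22 rose and 1 fell in 2024, and none was called in 2023, beside the 3.25% and 2.48% of all genes. PSY1 (Os06g0729000), a phytoene synthase at the entry to carotenoids, averaged 425 CPM in GM leaves and 256 CPM in CF leaves of 2024, a log2 fold change of 0.72 ± 0.15 (SE, edgeR adjusted p = 0.0306). D14L2a (Os05g0590300), a relative of the receptor genes, averaged 13.3 CPM in GM leaves and 19.3 CPM in CF leaves of 2024, a log2 fold change of -0.55 ± 0.13 (SE, edgeR adjusted p = 0.0428). Each call was lost in 5 of the 6 fits that left out 1 library of 2024, with adjusted p up to 0.130 for PSY1 and 0.160 for D14L2a. Without GM library 1 of 2023 PSY1 was also called in that year (edgeR adjusted p = 0.0408). In 2023 the smallest p belonged to TPR1, at -0.24 ± 0.10 (SE, edgeR adjusted p = 0.270), and TPR2, at -0.31 ± 0.13 (SE, edgeR adjusted p = 0.271), a pair of TOPLESS-related co-repressors. The median log2 fold change of the 22 was -0.09 in 2024 and -0.10 in 2023.

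Between the years, 13 of the 22 rose and 2 fell in GM leaves, and 14 rose and 3 fell in CF leaves. The background in these contrasts is the 18.6% higher and 19.1% lower of all genes in GM leaves and the 19.5% and 20.4% in CF leaves. The same 13 rose and the same 2 fell in both, with DSM2 rising and TPR3 falling in CF leaves besides, though the years' difference between treatments was called for none of the 22. Median log2 fold changes of the 22 were 0.50 in GM leaves and 0.39 in CF leaves, against -0.05 over all genes in both. Scaled by plain library totals, 5 of the 22 rose and 5 fell in GM leaves, and 5 rose and 4 fell in CF leaves. Without GM library 2 or 3 of 2024, 1 of the 2 falls in GM leaves passed the test.

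Of the 11 carotenoid enzymes on the list, 9 rose in GM leaves and 10 in CF leaves in 2024. Of all genes, 18.6% rose in GM leaves and 19.5% in CF leaves. The 11 were chosen with earlier results known, and other carotenoid enzymes were not counted. The 11 include hydroxylases and the cleavage enzymes CCD1 and NCED3 besides precursor enzymes, so this count does not measure substrate supply. The carotene hydroxylase locus Os04g0578400 averaged 599 CPM in 2024 and 140.5 CPM in 2023 in GM leaves, a log2 fold change of 2.09 ± 0.12 (SE, edgeR adjusted p = 1.4e-10), and 567 and 144 CPM in CF leaves, a log2 fold change of 1.98 ± 0.12 (SE, edgeR adjusted p = 2.65e-10). The phytoene synthase PSY2 averaged 662 CPM in 2024 and 353 CPM in 2023 in GM leaves, with a log2 fold change of 0.91 ± 0.10 (SE, edgeR adjusted p = 1.23e-06). CRTISO, the carotene isomerase, passed in neither treatment, at -0.16 ± 0.10 in GM leaves and -0.09 ± 0.10 in CF leaves (SE). Plain library totals put the median of all genes at -0.52 in GM leaves and -0.49 in CF leaves. On that scale 8 of the 11 carotenoid genes were above 0 in GM leaves (4 called higher, 1 lower) and 7 in CF leaves (4 called higher, 1 lower).

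Of the karrikin branch, whose receptor D14L is a paralog of D14, all 3 listed loci changed between the years in both treatments. Of all genes, 37.8% changed in GM leaves and 39.9% in CF leaves, so nothing is read from this count. D14L averaged 5.59 CPM in 2024 and 1.94 CPM in 2023 in GM leaves, a log2 fold change of 1.50 ± 0.26 (SE, edgeR adjusted p = 0.000129), and 4.72 and 1.94 CPM in CF leaves, a log2 fold change of 1.29 ± 0.26 (SE, edgeR adjusted p = 0.000506). D14L2a fell to 13.3 CPM in 2024, against 40.2 CPM in 2023, in GM leaves, a log2 fold change of -1.60 ± 0.13 (SE, edgeR adjusted p = 2.56e-08), and to 19.3 CPM against 41.8 CPM in CF leaves, at -1.12 ± 0.13 (SE, edgeR adjusted p = 1.03e-06). SMAX1, a D53 relative that acts as repressor in this branch, rose by 0.57 ± 0.09 in GM leaves (SE, edgeR adjusted p = 9.71e-05) and by 0.39 ± 0.09 in CF leaves (SE, edgeR adjusted p = 0.00286). With plain library totals SMAX1 stood at 0.09 in GM leaves and -0.05 in CF leaves and passed the test in neither.

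**Figure D5:**
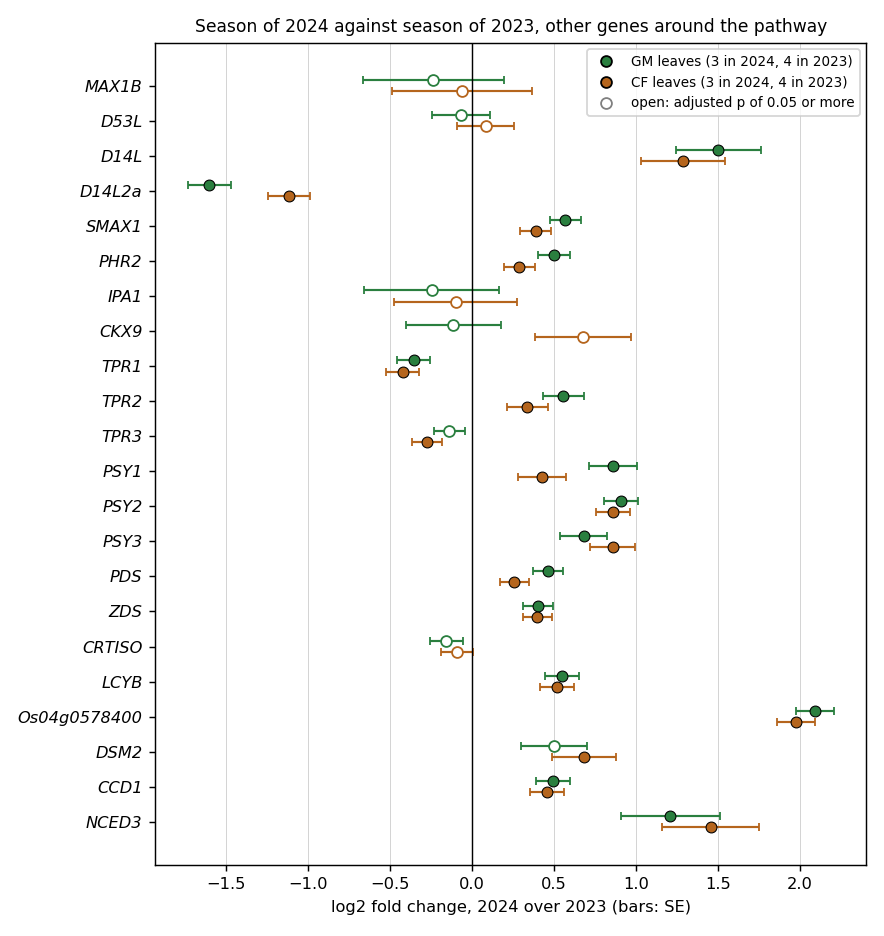
Log2 fold change, 2024 over 2023, of the 22 further pathway genes with enough reads, within GM leaves and within CF leaves. The x axis is the log2 fold change, bars are SE and filled points had an adjusted p under 0.05 in edgeR. Values run from -1.60 (D14L2a) to 2.09 (the hydroxylase Os04g0578400), with 13 genes higher and 2 lower in GM leaves and 14 higher and 3 lower in CF leaves.

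Of the regulators and tillering genes, the phosphate response factor PHR2 rose by 0.50 ± 0.10 in GM leaves (SE, edgeR adjusted p = 0.000369) and by 0.29 ± 0.10 in CF leaves (SE, edgeR adjusted p = 0.0213), but stood at 0.02 and -0.16 with plain library totals. TPR2, which D53 can recruit, rose by 0.56 ± 0.13 in GM leaves (SE, edgeR adjusted p = 0.00154) and by 0.34 ± 0.13 in CF leaves (SE, edgeR adjusted p = 0.0381); with plain library totals it stood at 0.07 and -0.11. TPR1 fell by 0.36 ± 0.10 in GM leaves (SE, edgeR adjusted p = 0.00787) and by 0.42 ± 0.10 in CF leaves (SE, edgeR adjusted p = 0.00204). The 6 loci without enough reads were CCD8A (20 reads over all libraries), MOC1 (19 reads), NSP1 (3 reads, all in 1 CF library of 2023), and MAX1C, FC1 and NSP2 (0 reads each).

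The libraries showed the marks of leaf tissue. The summed level of 4 leaf genes for Rubisco small subunits and light-harvesting proteins ranged from 61060 to 107182 CPM in GM leaves and from 46557 to 52351 CPM in CF leaves of 2024, and from 31390 to 58231 CPM and 21807 to 34525 CPM in 2023. Of 4 root genes, LSI2, NRT2.1 and RCc3 had no unique read in any library, and reads shared with other loci may be left out. The fourth, the silicon channel gene LSI1, ranged from 26.5 to 34.4 CPM in GM leaves and from 19.3 to 24.8 CPM in CF leaves of 2024, and from 15.6 to 29.4 CPM and 7.98 to 16.8 CPM in 2023. Of 4 meristem and bud genes, OSH1, OSH15 and LAX1 had no read and MOC1 at most 3 per library. The summed level of the 3 secondary wall genes CESA4, CESA7 and CESA9 was 17.7 to 63.8 CPM in GM leaves and 23.0 to 50.9 CPM in CF leaves of 2024, and 1.94 to 12.7 CPM and 3.15 to 8.33 CPM in 2023. The leaf sums did not overlap between the treatments in 2024 and overlapped in 2023, and did not overlap between the years in either treatment. LSI1 likewise did not overlap between the treatments in 2024, and it rose between the years in CF leaves, by 0.85 on the log2 scale (edgeR adjusted p = 0.00515). Of all genes, 22.7% did not overlap between the treatments in 2024, and 19.5% rose between the years in CF leaves. Between the years 38.4% of all genes did not overlap in GM leaves and 47.9% in CF leaves. The secondary wall sums did not overlap between the years. The part of these markers in the results above was not tested.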

How the data were processed

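The authors deposited whole-number read counts per locus, which per the labels are unique exon reads of directional polyA libraries. The build is IRGSP 1.0, as the submitters' processing notes name it. The aligner, counter and strand setting were not given in the sources used here, so reads of overlapping or antisense genes may be mixed. In the 2024 file 2 sample columns were present that the labels do not describe and that were not used. Library totals ran from 8161851 to 23367369 reads, and with 16 to 47 reads per library for D27 and 3 to 29 for D17 counting error alone is large for these loci.

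Low counts were removed by filterByExpr (minimum count 10, total 15); the rest were TMM-scaled and tested with the robust quasi-likelihood F-test of edgeR 4.0.16 (R 4.3.3), calling genes at an adjusted p under 0.05. Treatments were compared within each year, and years within each treatment and the difference between the years in a joint fit of all 14 libraries. The SE is the log2 fold change over the root of its F statistic. CPM of single libraries come from 1 TMM scaling of all 14. No 2 libraries of a group agreed within sampling noise (chi-square per degree of freedom 2.80 to 32.9 over 18 pairs). The labels call each leaf a biological replicate. The fits were tested on simulated data.

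The members and lists were chosen with earlier results of these data known. All members are named. Of the list genes, those called are named, or where none is called the 2 with the smallest p, and of the many called between years examples are given. Genes like MAX1D were the 6 largest r of log2 CPM (prior count 2) among loci with a mean of at least 2 CPM and an informative name or description. PSY1 and D14L2a fits, CKX9 and plain-total values of list genes were looked at after their values were seen.

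Alternatives were DESeq2 1.42.0, its size factors, no filter, a 5 CPM filter, calls limited to changes of 1 or more on the log2 scale, replicate numbers as a block, all 14 libraries in 1 fit, each library left out, and plain library totals for the members. Leaving out GM libraries 1 and 2 of 2023 together and plain totals for other results were added after the data were seen.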

Additional observations from a re-analysis of the deposited data

Results flagged for a closer look

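D17 in CF leaves of 2023 had 1 library at 0.269 CPM (3 reads), far from the other 3 at 1.00 to 1.11 CPM. Its gap to the nearest library was 0.871 of the group's range, above Dixon's critical value for 4 libraries. Of 14 member groups of 4 libraries looked at, this was the 1 that exceeded it. Chance alone gives about 1 in 20 for each group, so 1 among 14 groups is not unusual.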

How the results depend on the processing

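MAX1D kept its direction in every alternative between treatments (log2 fold change -2.14 to -1.70 in 2024, -2.05 to -1.64 in 2023) and between years (-2.50 to -1.91 in GM leaves, -2.43 to -1.73 in CF leaves), and D14 stayed above 0 between treatments (0.59 to 0.97 in 2024, 0.96 to 1.30 in 2023). D27 and D17 have no value under the 5 CPM filter. Plain library totals moved the median of all genes to -0.21 in 2024 and -0.18 in 2023 between treatments, and to -0.52 and -0.49 between years in GM and CF leaves. They reversed, between years in GM leaves, D17 (-0.24), D10 (-0.059), D14 (-0.40), D3 (-0.21) and D53 (-0.41), and in CF leaves D3 (-0.35) and D53 (-0.11). Between treatments they put D27 at -0.08 in 2024 and -0.01 in 2023, and D17 at -0.13 in 2024. Leaving out single libraries reversed D17 between treatments in 2024 (-0.15 without CF library 3) and, between years, D14 in GM leaves (-0.035 to 0.27, below 0 without GM library 3 of 2023 or GM library 1 of 2024), D53 in GM leaves (-0.16 to 0.31, below 0 without GM library 3 of 2024) and D3 in CF leaves (-0.0069 to 0.28, below 0 without CF library 1 of 2024). The cause was not tested.

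Genes called between treatments in 2024, 626 as reported, became 975 with no filter, 1188 with plain totals, 195 when limited to log2 changes of 1 or more, and 162 to 1603 with 1 library left out (1603, 270 and 352 without GM library 1, 2 or 3, and 162, 217 and 290 without CF library 1, 2 or 3). In 2023, 460 became 835 with DESeq2, 152 at that fold change, 723 in the fit of 14 libraries, 788 without GM libraries 1 and 2, and 149 to 666 with 1 library left out (149, 180 and 150 without CF library 1, 2 or 3). The 2 genes whose difference itself differed between years became 17 with DESeq2, 4 with no filter, 0 with plain totals, 12 without GM libraries 1 and 2 of 2023, and 0 to 13 with 1 library left out. Between years, 7481 genes in GM leaves became 2270 at that fold change, 11677 with plain totals and 5733 to 7536 with 1 library left out, and 7908 in CF leaves became 2425 at that fold change and 6043 to 8352 with 1 library left out.

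Same-numbered libraries of the 2 treatments did not all deviate together (r -0.00 to 0.27 over 3 pairs in 2024, 2 of which matched best, and -0.12 to 0.15 over 4 pairs in 2023, 0 of which did). So few pairs cannot decide whether the numbers mark a pairing, and the main fits used none. With the replicate block, 1616 genes were called in 2024 (626 without it) and 344 in 2023 (460 without it), 1 for the difference between years, and 7495 and 7893 between years in GM and CF leaves.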

Other observations

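CKX9, a cytokinin oxidase gene known in rice to respond to strigolactone, was like D10 higher in GM libraries 1 and 2 of 2023 than in GM libraries 3 and 4. It stood at 6.68 and 7.41 CPM in GM libraries 1 and 2, at 3.09 and 2.75 CPM in GM libraries 3 and 4, and at 2.51 to 3.62 CPM in CF leaves of that year. In 2024 it stood at 3.63, 4.46 and 5.78 CPM in GM leaves and at 5.00, 4.27 and 5.39 CPM in CF leaves. Its log2 fold change, GM over CF, was -0.10 ± 0.21 in 2024 and 0.70 ± 0.31 in 2023 (SE), called in neither year. It was picked out after its values were seen. GM libraries 1 and 2 of 2023 also stood apart over all genes. In GM leaves of 2024 the libraries ran in the reverse order for CKX9 and D10. A link between these genes was not tested.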
